A study of Mus musculus with 8 samples.

Results

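The genes of fatty acid and triglyceride synthesis were compared between livers of Atp7b KO and WT mice. They are 35 genes chosen by name, from the transcription factors of the pathway to the enzymes that close the triglyceride. Each of the 35 names matched 1 row of the deposited table of 54232 genes, and all 35 had enough counts to be among the 15811 genes tested. The series concerns Wilson disease, in which the copper-transporting ATPase encoded by Atp7b is defective, and its title names bile acid physiology. RNA sequencing of liver was available for 4 Atp7b KO and 4 WT libraries, and the design text gives an age of 6 months for the mice. The labels state no strain, sex, diet, time of collection or kind of Atp7b allele, and do not say whether each library came from a separate mouse. The p-values therefore measure only the spread between these libraries, which may be technical.

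Total counts per library ranged from 14583961 to 18423836 in KO and from 9880253 to 27530506 in WT. Levels are given as CPM, counts brought to a common library size with TMM factors, which equalise the bulk of genes between libraries. Fold changes are log2, KO minus WT, from edgeR's quasi-likelihood test, and p-values are adjusted over all genes tested by the Benjamini-Hochberg method. Atp7b itself read 6.50 to 8.91 CPM in KO and 9.63 to 32.0 CPM in WT (log2 fold change -1.65 ± 0.32, SE, adjusted p = 0.00313). Which part of the gene the allele removes is not stated, so the remaining counts could not be placed on it. WT replicate 3 held the lowest of the WT values and stood apart across genes. This library was also the shallowest, at 9880253 total counts, with a TMM factor of 0.716 against 0.848 to 0.952 in the rest of WT. Its log2 CPM correlated at 0.925 to 0.944 with the other WT libraries, which correlated at 0.975 to 0.986 among themselves, so results are also given without it. In bulk liver, fewer hepatocytes and less RNA per hepatocyte cannot be told apart.

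Liver makes fatty acids from citrate that leaves the mitochondria. Cytosolic citrate is split to acetyl-CoA, carboxylated to malonyl-CoA and built into palmitate by fatty acid synthase with NADPH as reductant. Palmitate is then activated to acyl-CoA, elongated and desaturated in the endoplasmic reticulum, and esterified stepwise onto glycerol phosphate to give triglyceride. The genes of this route are induced after feeding, mainly by SREBP-1, which responds to insulin, and by ChREBP, which responds to carbohydrate.

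Most synthesis genes were lower in KO than in WT. Of the 35 genes, 22 fell and 3 rose at an adjusted p under 0.05, and 10 were not called. Over all genes tested, 30.0% were called, 12.5% lower and 17.6% higher. The largest fall in absolute terms was that of Scd1, which averaged 3988 CPM in KO and 18629 CPM in WT. The gains were those of Elovl7, Scd2 and Acsl4. Elovl7 passed the filter on low counts only through its KO libraries, so its gain is a description. For Acsl4 the genotypes overlapped. The 35 genes together took 0.620% to 1.17% of all counts in KO libraries and 1.36% to 3.26% in WT libraries. All KO values lay below all WT values for 18 genes and above them for 3. Those 3 were Scd2, Elovl7 and Elovl1, of which Elovl1 was not called. Over all genes tested, libraries did not overlap in 32.1%, with KO below in 13.4% and above in 18.7%. The median log2 fold change of the 35 was -1.15, beside -0.05 for all genes tested.

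**Figure D1:**
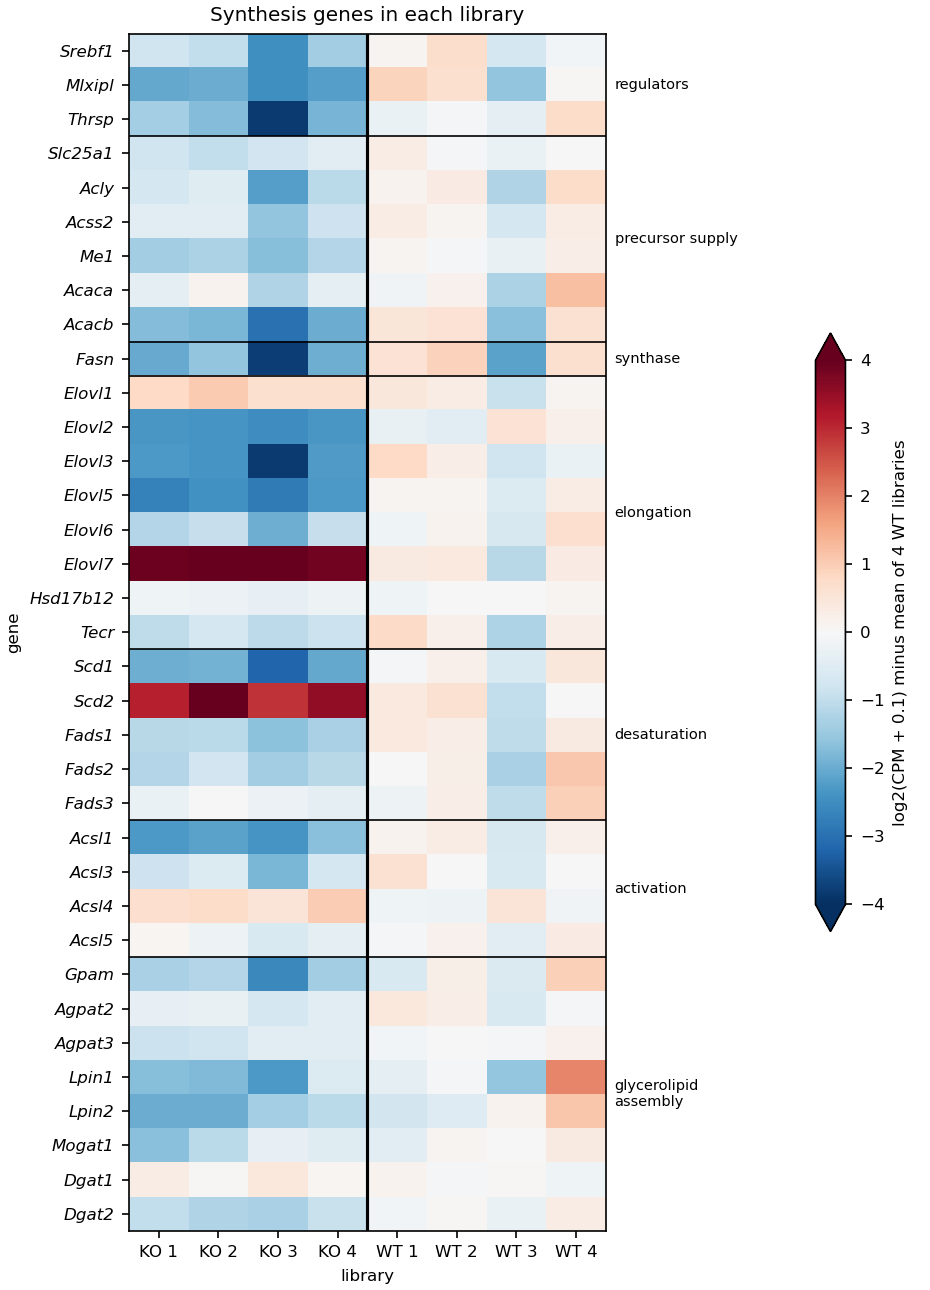
Level of each of the 35 synthesis genes (rows, grouped by step) in the 4 KO and 4 WT libraries (columns), as log2(CPM + 0.1) minus the mean of the 4 WT libraries; colours saturate at -4 and 4. Most rows are blue in all 4 KO libraries, Elovl7 and Scd2 are dark red there, and WT replicate 3 is paler or bluer than the other WT libraries in many rows.

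These counts depended on how libraries were scaled. Scaled by library totals alone, all genes had a median log2 fold change of 0.37, and 14 synthesis genes were lower and 5 higher, beside 4.10% and 30.3% of all genes. Hepatocyte marker factors hold the mean log2 level of 10 markers even between libraries (Alb, Apoa1, Ttr, Hnf4a, Cps1, Ass1, Tat, Pck1, Serpina1c, Fgb). With them the median of all genes was 0.80, and 9 synthesis genes were lower and 5 higher, beside 1.24% and 42.7%. The 10 markers themselves then had a median of 0.22, with 1 lower. Under TMM, Pck1 (-3.10) and Tat (-1.38) were the lowest of the 10, whose median was -0.69. Without WT replicate 3, 28 were lower and 4 higher, beside 23.4% and 26.0%. A further scaling used trimmed totals, from which the 10 most abundant genes were removed. Across 19 alternatives with the same threshold, Mlxipl, Thrsp, Acacb, Fasn, Elovl2, Elovl3, Elovl5, Scd1 and Acsl1 were called lower in every one, and Scd2 higher in every one. Elovl7 was higher in each as well, but it passed the filter on low counts only through its KO libraries, so its call is no independent support for its direction.

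**Figure D2:**
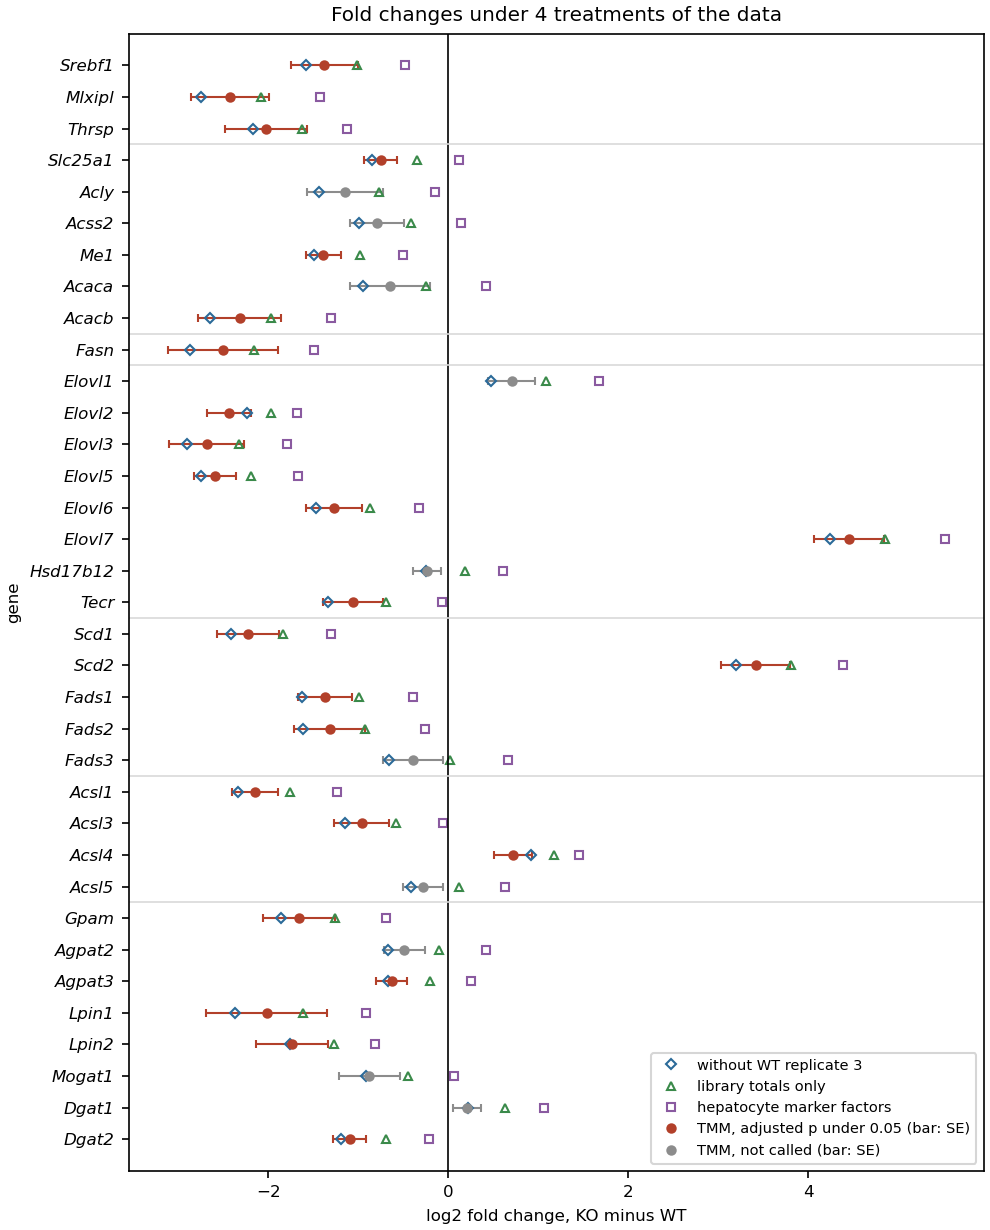
Log2 fold change, KO minus WT, of each synthesis gene (rows) with its standard error, filled red where the adjusted p was under 0.05 and grey where not. Open symbols give the value without WT replicate 3, with library totals only and with hepatocyte marker factors. The last 2 scalings shift all genes to the right; Fasn, Elovl5 and Scd1 stay left of 0 and Scd2 and Elovl7 right of it under each of the 4 treatments.

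Promoters were inspected for 29 of the 35 genes, those with an entry in the RefSeq table (GRCm38.p6). Sequences of 250 bases upstream of the start are shown for Fasn and Mlxipl, which were lower in every alternative, and for Elovl7, whose counts were higher in every KO library than in any WT library. Capitals mark CCAAT, a box bound by the factor NF-Y, and CACGTG, an E-box bound by USF proteins, each on either strand.
Fasn: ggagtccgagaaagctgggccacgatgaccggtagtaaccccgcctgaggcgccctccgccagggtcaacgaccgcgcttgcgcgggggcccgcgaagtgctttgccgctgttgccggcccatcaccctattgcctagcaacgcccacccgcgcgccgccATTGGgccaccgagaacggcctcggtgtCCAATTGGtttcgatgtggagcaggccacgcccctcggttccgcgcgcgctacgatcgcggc
Mlxipl: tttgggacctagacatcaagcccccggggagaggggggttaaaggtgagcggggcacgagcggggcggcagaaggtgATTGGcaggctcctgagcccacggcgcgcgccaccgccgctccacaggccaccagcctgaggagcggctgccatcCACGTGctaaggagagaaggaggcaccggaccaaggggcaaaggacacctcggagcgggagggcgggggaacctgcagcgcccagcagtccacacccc
Elovl7: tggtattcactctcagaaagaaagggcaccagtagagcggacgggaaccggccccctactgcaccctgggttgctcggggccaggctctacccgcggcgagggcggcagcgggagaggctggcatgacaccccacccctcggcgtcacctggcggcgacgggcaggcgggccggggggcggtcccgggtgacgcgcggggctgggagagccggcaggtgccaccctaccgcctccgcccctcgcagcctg

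The Fasn window (chr11:120824548-120824797, minus strand) holds 3 CCAAT matches, 2 of which overlap on opposite strands. The Mlxipl window (chr5:135089640-135089889, plus strand, the more upstream of 2 starts in the table) holds 1 CCAAT and 1 E-box. The Elovl7 window (chr13:108214154-108214403, plus strand) holds neither word. Among the 39 windows of the 29 genes, 48.7% held CCAAT on either strand, against 33.8% of all 32851 windows of the table. The E-box CACGTG was in 10.3% of the 39 windows and in 6.02% of all, and belonged to Elovl5, Lpin2, Mlxipl and Slc25a1. A longer word for the sterol regulatory element, TCACNCCAC, was in 2 of the 39 windows (5.13%) and in 1.05% of all, at Acsl1 and Mlxipl. The Mlxipl match is not in the window shown above but in that of its other start. These matches describe letters in short windows and not bound sites.

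Among the regulators, all 3 genes fell in KO. Mlxipl, which encodes ChREBP, read 79.2, 82.8, 60.0 and 70.6 CPM in KO replicates 1 to 4 and 607, 509, 109 and 341 CPM in WT replicates 1 to 4. The KO libraries lay close together and below every WT library, while WT replicate 3 lay nearest to them. The log2 fold change was -2.42 ± 0.43 (5.35-fold lower, adjusted p = 0.0018). Srebf1, which encodes SREBP-1 from alternative first exons that gene counts do not separate, read 146, 129, 46.6 and 97.6 CPM in KO and 277, 416, 159 and 235 CPM in WT. Its libraries did not overlap either, with KO replicate 3 lowest. The Srebf1 log2 fold change was -1.37 ± 0.37 (adjusted p = 0.0179), and it lost its call under library totals (-1.01, adjusted p = 0.069), trimmed totals (-1.05, adjusted p = 0.0608) and hepatocyte marker factors (-0.48, adjusted p = 0.305).

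Thrsp, a small protein that promotes fatty acid synthesis and responds to thyroid hormone, read 214, 166, 39.0 and 151 CPM in KO and 456, 520.2, 426 and 915 CPM in WT. All KO values were below all WT values, and KO replicate 3 lay far below the other KO libraries. Its log2 fold change was -2.02 ± 0.46 (adjusted p = 0.00699).

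Of the 6 genes that supply precursors and reductant, 3 fell and none rose. Acacb, the acetyl-CoA carboxylase at the mitochondrial surface whose malonyl-CoA restrains fatty acid entry, read 32.8, 30.6, 13.7 and 27.4 CPM in KO and 153, 164, 34.5 and 168 CPM in WT. WT replicate 3 lay just above the highest KO library and the other WT libraries far above it. The log2 fold change was -2.32 ± 0.46 (4.98-fold lower, adjusted p = 0.00332). Acaca, the cytosolic carboxylase that makes malonyl-CoA for synthesis, read 81.3, 117, 46.4 and 81.8 CPM in KO and 97.8, 121, 44.7 and 247 CPM in WT. These ranges overlapped, and Acaca was not called (-0.65 ± 0.45, adjusted p = 0.31), though it was without WT replicate 3 (-0.95, adjusted p = 0.0257). Without WT replicate 4, the highest library, the Acaca fold change was -0.12 (adjusted p = 0.856).

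Me1, the cytosolic malic enzyme that yields NADPH, averaged 150.4 ± 22.8 CPM in KO and 394 ± 64.6 CPM in WT (SD, n = 4 each) with no overlap (-1.39 ± 0.19, adjusted p = 3.84e-04). It was not called with hepatocyte marker factors (-0.50, adjusted p = 0.15). Slc25a1, the mitochondrial citrate carrier, averaged 110.1 ± 17.2 CPM in KO and 185 ± 30.6 CPM in WT (SD, n = 4 each; -0.75 ± 0.19, adjusted p = 0.0113). It lost its call under library totals (adjusted p = 0.238) and trimmed totals (0.164), and with hepatocyte marker factors its sign turned (0.12, adjusted p = 0.739). Acly, which splits citrate, was at -1.15 ± 0.43 (adjusted p = 0.0662), and Acss2, which makes acetyl-CoA from acetate, at -0.79 ± 0.30 (adjusted p = 0.0692). Both were called lower without WT replicate 3 (Acly -1.43, adjusted p = 0.00214, and Acss2 -0.99, adjusted p = 0.00355) and by DESeq2 (adjusted p = 0.0307 and 0.0406). With hepatocyte marker factors the signs of Acss2 (0.14) and Acaca (0.42) turned, without a call.

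Fasn, the synthase that builds palmitate, read 245, 334, 73.5 and 257 CPM in KO and 1492, 1890.4, 225 and 1542 CPM in WT. WT replicates 1, 2 and 4 lay far above every KO library, and WT replicate 3 lay within the KO range. The log2 fold change was -2.50 ± 0.61 (5.66-fold lower, adjusted p = 0.0107), and -2.87 without WT replicate 3 (adjusted p = 5.5e-05). Replicate 3 was the lowest library of its genotype in both groups.

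**Figure D3:**
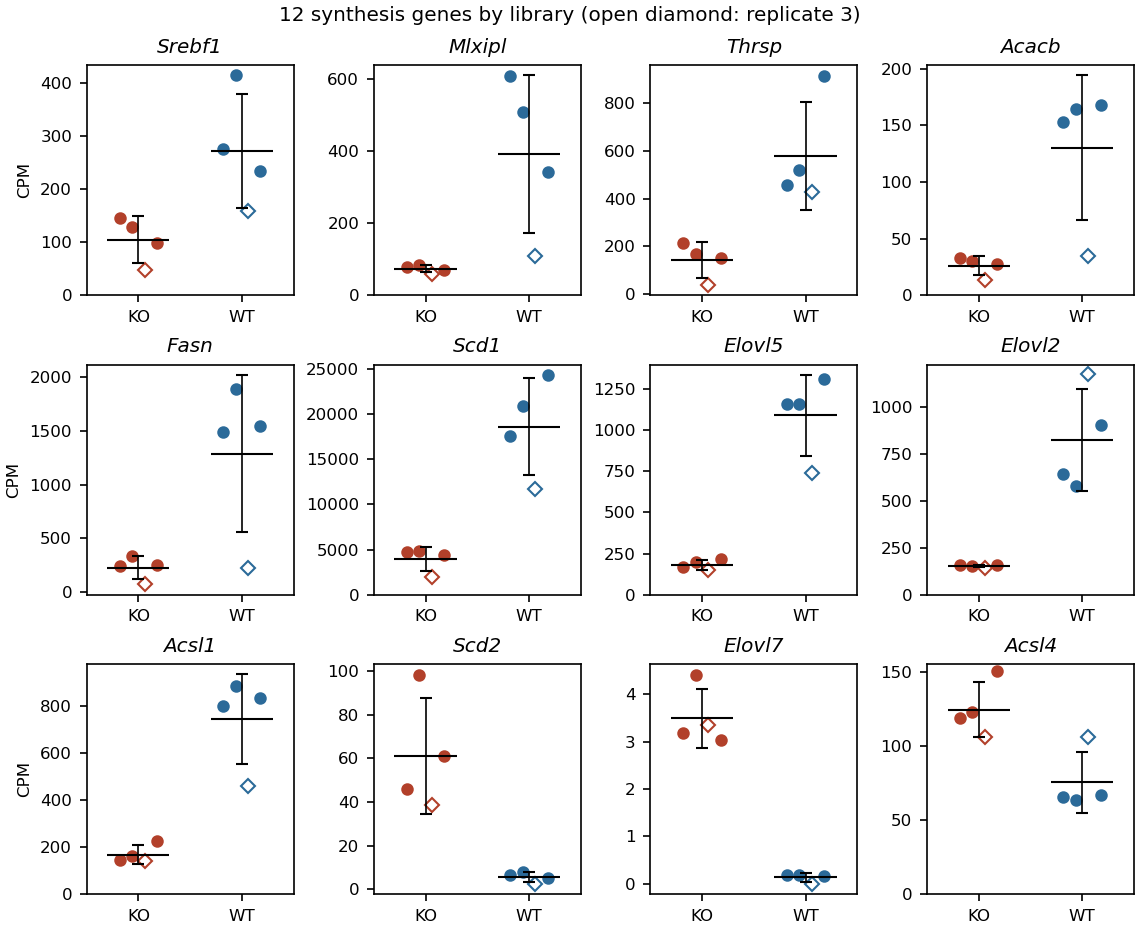
CPM of 12 synthesis genes in the 4 KO (red, left) and 4 WT (blue, right) libraries, with the mean (line) and SD (bar) of each group; replicate 3 of each genotype is an open diamond. For Fasn the WT diamond, at 225 CPM, sits within the KO range, whereas for Scd1 and Elovl5 it sits above all KO libraries; Scd2 and Elovl7 are higher in every KO library.

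Elongation genes moved in both directions. Of 8 genes, 5 fell and 1 rose. Elovl5, which elongates polyunsaturated fatty acids, read 166, 197, 150.1 and 215 CPM in KO and 1162, 1159, 738 and 1309 CPM in WT. Every WT library held more than 3 times the highest KO value. Its log2 fold change was -2.58 ± 0.23 (adjusted p = 2.34e-05). Elovl2, which takes polyunsaturated chains to greater length, read 159, 155, 142 and 157 CPM in KO and 644, 582, 1177 and 908 CPM in WT. The KO libraries were nearly equal, and WT replicate 3 was the highest library of all. The Elovl2 log2 fold change was -2.44 ± 0.25 (adjusted p = 4.94e-05).

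Elovl3 makes saturated and monounsaturated very long chains, and its level in mouse liver is known to depend on sex and time of day. It read 102, 95.7, 35.1 and 103 CPM in KO and 855, 596, 286 and 413 CPM in WT, with no overlap (-2.68 ± 0.42, adjusted p = 7.64e-04). The Y-linked gene Ddx3y read 43.0 to 81.8 CPM in KO and 70.7 to 188 CPM in WT, and Xist read at most 0.459 CPM in KO and 0.184 CPM in WT. Elovl6, which elongates palmitate to stearate, averaged 67.9 ± 19.7 CPM in KO and 164 ± 63.2 CPM in WT (SD, n = 4 each; -1.27 ± 0.31, adjusted p = 0.0105). It lost the call under library totals (-0.87, adjusted p = 0.0575) and with hepatocyte marker factors (-0.32, adjusted p = 0.358).

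Elovl7, which elongates saturated very long chains, went the other way. It had 50, 96, 66 and 63 counts in KO replicates 1 to 4 and 2, 3, 0 and 4 counts in WT replicates 1 to 4. On the CPM scale these were 3.02 to 4.41 in KO and 0 to 0.184 in WT, and the fitted log2 fold change was 4.45 ± 0.39. WT counts of this size leave the fold imprecise. They also lie under the filter on low counts, which Elovl7 passed only because its KO counts were high, so its values are given as a description. Elovl1, another elongase of saturated very long chains, averaged 62.9 ± 8.93 CPM in KO and 38.5 ± 13.3 CPM in WT (SD, n = 4 each). Its libraries did not overlap, but it was not called (0.70 ± 0.26, adjusted p = 0.0646). It was called higher in 10 of the 19 alternatives, such as without WT replicate 3 (0.48, adjusted p = 0.0135) and with DESeq2 (adjusted p = 0.0491). Elovl1 shares 53 exon bases with Cdc20 on the opposite strand, a cell division gene that averaged 22.0 CPM in KO and 0.386 CPM in WT, and the share of such reads was not measured.

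The reductases of each elongation cycle are Tecr and Hsd17b12. Tecr, the enoyl-CoA reductase, read 61.9 to 79.7 CPM in KO and 54.8 to 217 CPM in WT. Its call (-1.06 ± 0.34, adjusted p = 0.0359) was strongest without WT replicate 3, the lowest library (-1.34, adjusted p = 3.32e-05). It was lost without KO replicates 1, 2, 3 or 4 (adjusted p = 0.0885, 0.0655, 0.0968 and 0.0753) or WT replicates 1, 2 or 4 (0.0955, 0.065 and 0.0782). It was also lost with upper-quartile factors (0.0609), library totals (0.191), trimmed totals (0.16) and hepatocyte marker factors (-0.06, adjusted p = 0.876). Hsd17b12, the ketoacyl-CoA reductase, averaged 209 CPM in KO and 246 CPM in WT (-0.23 ± 0.15, adjusted p = 0.274). Its sign turned under library totals (0.19), trimmed totals (0.14) and hepatocyte marker factors (0.61).

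Of 5 desaturase genes, 3 fell and 1 rose. Scd1, the main stearoyl-CoA desaturase of adult mouse liver, read 4690.1, 4866, 2006 and 4390.3 CPM in KO and 17552, 20876, 11729 and 24360.2 CPM in WT. No KO library reached even WT replicate 3, and KO replicate 3 was the lowest of all. The log2 fold change was -2.22 ± 0.34 (4.67-fold lower, adjusted p = 7.04e-04). Scd1 made up 39.2% to 50.4% of the summed CPM of the 35 genes in KO and 59.7% to 63.2% in WT.

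Scd2, a related desaturase prominent in brain and in the liver of newborn mice, read 45.8, 98.4, 38.7 and 61.3 CPM in KO and 6.77, 7.93, 2.55 and 5.19 CPM in WT. Each KO library held several times the highest WT value. The log2 fold change was 3.42 ± 0.38 (10.7-fold higher, adjusted p = 1.0e-04). Scd1 and Scd2 are similar in sequence and lie on the same chromosome, so reads may be shared between them; how they were assigned is not given in the sources used here.

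Fads1 and Fads2, the front-end desaturases of polyunsaturated fatty acid synthesis, both fell. Fads1 averaged 191 ± 31.9 CPM in KO and 493 ± 179 CPM in WT (SD, n = 4 each; -1.37 ± 0.30, adjusted p = 0.00579), and lost its call with hepatocyte marker factors (-0.39, adjusted p = 0.274). Fads2 read 131, 173, 112 and 135 CPM in KO and 291, 346, 120.0 and 614 CPM in WT, where replicate 3 lay within the KO range. Its call (-1.32 ± 0.40, adjusted p = 0.029) was lost without KO replicates 1, 3 or 4 (adjusted p = 0.0724, 0.0861 and 0.0683) and WT replicates 2 or 4 (0.0509 and 0.0854, with -0.88 without WT replicate 4). It was also lost with library totals (0.112), trimmed totals (0.097), hepatocyte marker factors (0.53) and a clock covariate (0.0666). Fads3, the third gene of that cluster, was at -0.39 ± 0.34 (adjusted p = 0.421) and was called lower without WT replicate 3 (-0.65, adjusted p = 0.0272) and with quality weights (-0.51, adjusted p = 0.044). Without WT replicate 4 the Fads3 fold change was -0.00 (adjusted p = 0.998), and its sign turned with library totals (0.02) and hepatocyte marker factors (0.66), without a call.

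The 4 acyl-CoA synthetases, which activate fatty acids, split. Acsl1, the main form of hepatocytes, read 146, 162, 139.6 and 226 CPM in KO and 799.9, 886, 462 and 834 CPM in WT. Its libraries were well separated (-2.15 ± 0.26, 4.42-fold lower, adjusted p = 1.51e-04). Acsl4, which prefers arachidonate, read 119, 123, 106 and 151 CPM in KO and 65.7, 63.6, 106 and 67.1 CPM in WT. WT replicate 3 matched the lowest KO library, and the other WT libraries lay below all KO libraries.

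The Acsl4 log2 fold change was 0.72 ± 0.21 (adjusted p = 0.0244), and 0.92 without WT replicate 3 (adjusted p = 2.7e-04). Its call was lost without KO replicates 1, 2 or 4 (adjusted p = 0.0513, 0.0572 and 0.0807) and without WT replicates 1, 2 or 4 (0.0662, 0.067 and 0.0632). Acsl3, a form found on lipid droplets, averaged 22.0 CPM in KO and 42.7 CPM in WT (-0.96 ± 0.31, adjusted p = 0.0387). That call was lost without KO replicates 1, 3 or 4 (adjusted p = 0.0783, 0.0801 and 0.0609), without WT replicates 1, 2 or 4 (0.103, 0.0592 and 0.0696), and under upper-quartile (0.0663), library total (0.221), trimmed total (0.183) and hepatocyte marker scaling (0.881). Acsl5 had the smallest fold change of the 4, at 559 ± 114 CPM in KO and 676 ± 149.6 CPM in WT (SD, n = 4 each; -0.28 ± 0.22, adjusted p = 0.393). The sign of its fold change turned under library totals (0.12), trimmed totals (0.07) and hepatocyte marker factors (0.64).

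In glycerolipid assembly, 5 of 8 genes fell and none rose. Gpam, the mitochondrial enzyme that adds the first acyl chain to glycerol phosphate, read 77.8, 86.0, 32.3 and 74.1 CPM in KO and 127, 228, 128 and 369 CPM in WT. All KO libraries were below all WT libraries (-1.66 ± 0.40, adjusted p = 0.0098). Dgat2, a diacylglycerol acyltransferase that closes triglycerides from newly made fatty acids, averaged 189 ± 24.1 CPM in KO and 403 ± 66.9 CPM in WT (SD, n = 4 each; -1.09 ± 0.19, adjusted p = 0.00135). Dgat1, the unrelated enzyme for the same step, averaged 32.4 ± 4.03 CPM in KO and 27.9 ± 2.45 CPM in WT (SD, n = 4 each; 0.21 ± 0.16, adjusted p = 0.34). Gpam and Dgat2 lost their calls with hepatocyte marker factors (adjusted p = 0.119 and 0.537), and Dgat1 was then called higher (1.06), as it was under library totals (0.63) and trimmed totals (0.58).

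The phosphatidate phosphatases Lpin1 and Lpin2 fell, with a wide spread. Lpin2 read 79.3, 79.7, 123 and 148 CPM in KO and 188, 221, 346 and 671 CPM in WT, with no overlap (-1.73 ± 0.40, adjusted p = 0.0079). Lpin1 read 25.3, 24.3, 16.6 and 56.0 CPM in KO and 62.9, 79.9, 28.3 and 322 CPM in WT. WT replicate 4 was the highest library for both genes. Without it the Lpin1 log2 fold change was -0.91 (adjusted p = 0.176), against -2.02 ± 0.67 with it (adjusted p = 0.0439). The Lpin1 call was also lost without KO replicates 1, 2 or 3 (adjusted p = 0.106, 0.113 and 0.121), with upper-quartile factors (0.0546), library totals (0.0782), trimmed totals (0.075), hepatocyte marker factors (0.139) and a clock covariate (-1.35, adjusted p = 0.154). The Lpin2 call was lost with hepatocyte marker factors (adjusted p = 0.114).

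Agpat3, an acyltransferase that makes the phosphatidate on which the lipins act, averaged 131 ± 20.1 CPM in KO and 203 ± 19.5 CPM in WT (SD, n = 4 each; -0.62 ± 0.17, adjusted p = 0.0189). Its call was lost without KO replicates 1 or 2 (adjusted p = 0.0656 and 0.0694) or WT replicate 4 (0.0607), with no filter (0.0544), with library totals (0.458) and with trimmed totals (0.319). With hepatocyte marker factors its sign turned (0.25, adjusted p = 0.514). Agpat2 was at -0.49 ± 0.23 (adjusted p = 0.136) and Mogat1, a monoacylglycerol acyltransferase read at 0.698 to 3.17 CPM over all 8 libraries, at -0.88 ± 0.34 (adjusted p = 0.0753). Both were called lower without WT replicate 3 (Agpat2 -0.66, adjusted p = 0.0036, and Mogat1 -0.91, adjusted p = 0.0463). With hepatocyte marker factors both signs turned (0.43 and 0.06), without a call.

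Per kilobase of exon, Scd1 was the most abundant of the 35 in both genotypes, at 815 CPM per kb in KO and 3808 CPM per kb in WT. The next genes in WT were Elovl5, Elovl3, Thrsp and Elovl2, at 310.0, 272, 265 and 209 CPM per kb. In KO these 4 stood at 51.7, 42.4, 65.1 and 38.6 CPM per kb, and Acsl5 (115), Hsd17b12 (86.7) and Agpat2 (79.0) followed Scd1 instead. Fasn ranked 19 of 35 in KO, at 20.8 CPM per kb, and 8 of 35 in WT, at 118. Scd2 ranked 24 in KO, at 11.2 CPM per kb, and 34 in WT, at 1.03.

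**Figure D4:**
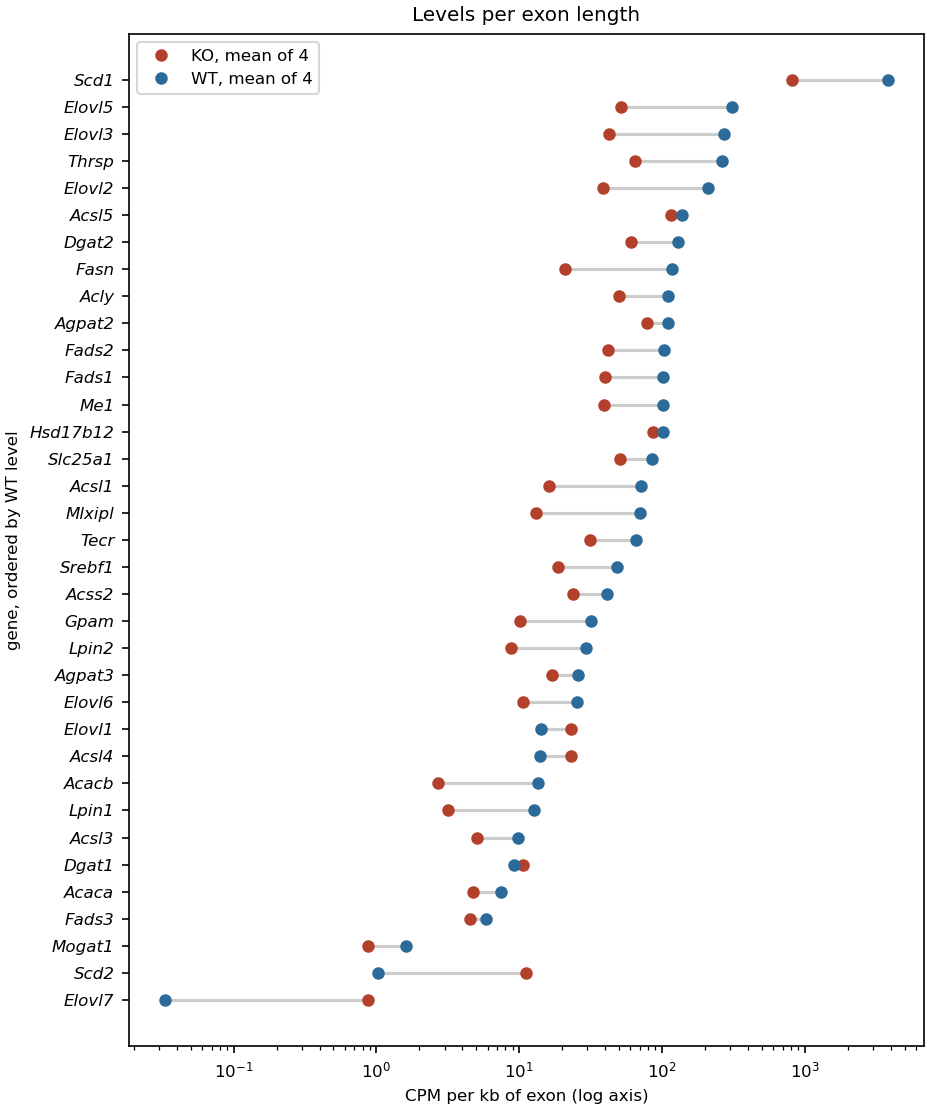
Mean level of each synthesis gene per kilobase of exon, on a log axis, in 4 KO (red) and 4 WT (blue) libraries, ordered by the WT level. Scd1 leads in both groups; Scd2 and Elovl7 lie at the bottom in WT with KO to their right, and most other genes have KO to the left of WT.

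Ratios of 2 genes within a library do not depend on how libraries are scaled, and 8 pairs of isoenzymes or factors were compared by a two-sided exact permutation test over libraries. For 6 pairs the genotypes did not overlap. That gives an exact permutation p = 0.0286, the smallest that 4 against 4 libraries allow (adjusted p = 0.0381 over the 8 pairs). The pairs were chosen with earlier results of these data known, and the ratios use the same values as the calls above. These p-values are therefore no independent support for those calls. The log2 ratio of Scd1 to Scd2 was 6.67, 5.63, 5.69 and 6.16 in KO and 11.31, 11.34, 12.10 and 12.16 in WT, a difference of -5.69. Scd2 thus stood much closer to Scd1 in every KO library than in any WT library.

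The log2 ratio of Acsl1 to Acsl4 was 0.29 to 0.59 in KO and 2.12 to 3.798 in WT (difference -2.87, and -3.26 without WT replicate 3). For Elovl2 to Elovl1 it was 1.03 to 1.47 in KO and 3.68 to 5.89 in WT (difference -3.16, and -2.68 without WT replicate 3). For Dgat2 to Dgat1 the difference was -1.30 and for Elovl5 to Elovl6 it was -1.32. Acaca to Acacb shifted towards Acaca, at 1.31 to 1.93 in KO and -0.64 to 0.55 in WT (difference 1.68).

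Lpin1 to Lpin2 (difference 0.02, p = 0.971 by the exact permutation test) and Srebf1 to Mlxipl (0.76, p = 0.143 by the exact permutation test) overlapped. The adjusted values of these 2 pairs were 0.971 and 0.163. Without WT replicate 3 the differences were -0.54 and 1.06, and leaving out each library in turn gave -0.54 to 0.34 for Lpin1 to Lpin2 and 0.50 to 1.06 for Srebf1 to Mlxipl. Their ratios ranged from -2.89 to -1.40 in KO and -3.61 to -1.06 in WT for Lpin1 to Lpin2, and from -0.36 to 0.88 in KO and -1.13 to 0.54 in WT for Srebf1 to Mlxipl.

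**Figure D5:**
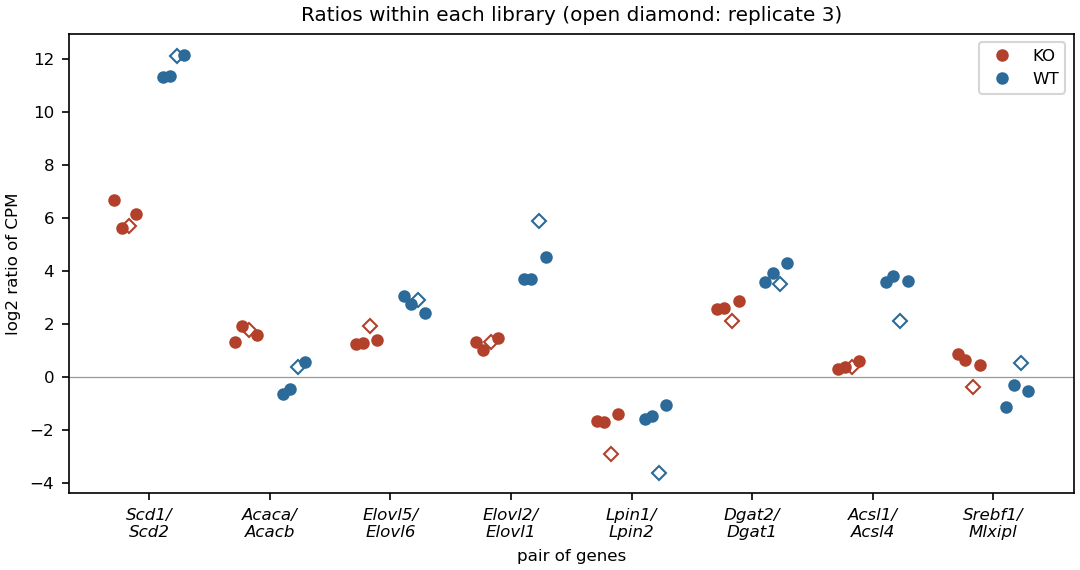
Log2 ratio of CPM (prior count 2) for 8 pairs of synthesis genes in each of 4 KO (red) and 4 WT (blue) libraries; open diamonds are replicate 3. KO and WT libraries separate for 6 pairs, most widely for Scd1 over Scd2, and overlap for Lpin1 over Lpin2 and Srebf1 over Mlxipl.

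Replicate 3 was low in both genotypes. Of the 35 genes, 27 had their lowest KO value in KO replicate 3 and 27 had their lowest WT value in WT replicate 3, with 23 genes in common. Over all genes tested, these shares were 28.9% for KO replicate 3 and 41.1% for WT replicate 3. The library names carry numbers, which the labels do not call batches. They were first put into 3 series: a lowest with KO replicates 1 and 2 and WT replicate 1, a middle with replicate 3 of each genotype, and a highest with KO replicate 4 and WT replicates 2 and 4. The number of WT replicate 1 lies nearer to the middle series than to the KO numbers it was put with. In these series the difference was below 0 for 28, 28 and 30 of the 35 genes, beside 7575, 7603 and 7777 of the 15811 genes tested. The median log2 difference of the 35 genes was -0.99, -0.86 and -1.26 from the lowest to the highest series. In the middle series, replicate 3 of each genotype alone, Tecr was at 0.18 and Acsl4 at -0.00, against the sign of their calls. With these series as a covariate, 24 were lower and 4 higher, beside 12.9% and 17.9% of all genes.

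Cutting the numbers at their 2 largest gaps, an alternative added after the data were seen, moves WT replicate 1 to the middle group and leaves the lowest group with KO libraries alone. The median of the 35 genes was then -1.32 in the middle group and -1.26 in the highest, with 29 and 30 genes below 0, beside 8025 and 7777 of all genes. With these groups as a covariate, 17 of the 35 were lower and 2 higher, beside 5.84% and 12.8% of all genes. Of the 22 lower calls 15 held. Slc25a1 (-0.62, adjusted p = 0.115), Tecr (-1.12, 0.154), Fads2 (-1.33, 0.0793), Acsl3 (-1.28, 0.0722), Agpat3 (-0.44, 0.162), Lpin1 (-1.65, 0.0829) and Lpin2 (-1.35, 0.086) lost theirs, as did Acsl4 among the higher ones (0.78, 0.0929). Without both libraries of replicate 3, 26 of the 35 were lower and 4 higher, beside 21.0% and 23.0% of all genes, and all 22 lower and all 3 higher calls were among them.

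Several synthesis genes are known to follow the time of day and feeding, so clock genes are given beside them. A clock index was formed as the average log2 level of 5 clock genes (Nr1d1, Nr1d2, Dbp, Per3, Tef) less the average of 3 clock genes of opposite phase (Cry1, Npas2, Arntl). It was -1.01, -1.28, 1.53 and 1.54 in KO replicates 1 to 4 and -1.08, 0.85, 4.19 and 4.58 in WT replicates 1 to 4. The highest values were those of WT replicates 3 and 4. These were the highest WT libraries for Elovl2 (1177 and 908 CPM) and Lpin2 (346 and 671 CPM), and the lowest and the highest for Lpin1 (28.3 and 322 CPM) and Acaca (44.7 and 247 CPM). With the index as a covariate, 22 synthesis genes were lower, 20 of them among the 22 called without it, and 3 were higher, beside 12.4% and 16.8% of all genes. Fads2 and Lpin1 lost their calls. Of 12 clock genes, 2 were lower (Tef and Hlf), beside 12.5% of all genes, with a median of -1.22. That count was 5 without WT replicate 1, without WT replicate 3 or with DESeq2, beside 1730 of 16385, 3837 of 16423 and 2511 of 34236 genes. It was 7 with no filter (2097 of 34236 genes) and 0 with hepatocyte marker factors (196 of 15811 genes). Without KO replicates 1, 2 or 3 or WT replicate 4 it was 1. All genes lower then numbered 1394 of 16164, 1319 of 15945, 1315 of 16111 and 1522 of 16271. Whether collection time differed between libraries was not tested.

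Other genes of the pathway were compared as 4 lists. Of 23 relatives of the synthesis enzymes, 20 were tested, and 4 were lower and 3 higher, with a median of -0.17. Gpat4, a microsomal glycerol phosphate acyltransferase, averaged 56.6 CPM in KO and 143 CPM in WT (-1.33 ± 0.18, adjusted p = 3.37e-04). Acss3, an acyl-CoA synthetase of short chains, was at -2.02 ± 0.22 (adjusted p = 9.02e-05) and Scd3, which neighbours Scd1 and may share reads with it, at -2.42 ± 0.51 (adjusted p = 0.0046). Mogat2, the monoacylglycerol acyltransferase best known from intestine, averaged 3.17 CPM in KO and 0.179 CPM in WT. The WT libraries held 12 Mogat2 counts in all, and 16 of Acss1, which averaged 0.846 CPM in KO and 0.224 CPM in WT. Both passed the filter on low counts only through KO, so their places among the 3 are a description. The shares called were 20.0% lower and 15.0% higher, near those of all genes (12.5% and 17.6%). Library totals gave 3 lower and 6 higher relatives, beside 4.10% and 30.3% of all genes. Hepatocyte marker factors gave 2 lower and 9 higher, beside 1.24% and 42.7%.

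Of 18 regulators of SREBP, ChREBP and their partners, 8 were lower and none higher, beside 12.5% and 17.6% of all genes. Their median was -0.52. Insr, the insulin receptor, averaged 45.7 CPM in KO and 127 CPM in WT (-1.48 ± 0.17, adjusted p = 1.34e-04). Scap, the SREBP escort, averaged 54.9 CPM in KO and 114 CPM in WT (-1.05 ± 0.17, adjusted p = 8.2e-04). Insig2, which retains SREBP in the endoplasmic reticulum, was at -1.15 ± 0.20 (adjusted p = 0.00135) and the receptor partner Rxra at -1.19 ± 0.24 (adjusted p = 0.00333). This list had 4 lower and 3 higher with library totals, beside 4.10% and 30.3% of all genes. With hepatocyte marker factors it had 0 lower and 6 higher, beside 1.24% and 42.7%.

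Among 12 genes known as targets of these factors outside synthesis, 6 were lower and 1 higher, beside 12.5% and 17.6% of all genes. Their median was -0.92. Pklr, the liver pyruvate kinase, read 42.1 to 89.0 CPM in KO and 149.6 to 496 CPM in WT (-2.33 ± 0.37, adjusted p = 8.23e-04), and Khk, the ketohexokinase, was at -0.90 ± 0.18 (adjusted p = 0.00352). Lpl, lipoprotein lipase, was the gene that rose, at 95.7 to 134 CPM in KO and 9.68 to 19.3 CPM in WT (2.90 ± 0.24, adjusted p = 1.56e-05). Under library totals and under hepatocyte marker factors, 4 targets were lower and 1 higher. Over all genes, library totals gave 4.10% lower and 30.3% higher, and hepatocyte marker factors 1.24% and 42.7%.

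Of 10 genes for cytosolic NADPH and acetyl-CoA supply, 1 was called, Mlycd, which removes malonyl-CoA (-0.94 ± 0.20, adjusted p = 0.00517). It was lower in KO, 1 of 10 beside 12.5% of all genes. None of the 10 was lower under library totals or hepatocyte marker factors, beside 4.10% and 1.24% of all genes. Hepatocyte marker factors gave 2 higher, beside 42.7%. Taldo1 (-0.60 ± 0.23, adjusted p = 0.0728), Pgls (-0.44 ± 0.19, adjusted p = 0.107) and Cs (-0.61 ± 0.29, adjusted p = 0.139) followed. Without WT replicate 3, 5 of the 10 were lower, and the lists of relatives, regulators and targets had 7, 11 and 9 lower. These were out of 21, 18 and 12 tested, and over all genes 23.4% were then lower.

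Markers of hepatocytes and other liver cells were read in the same libraries, and over all genes 17.6% were higher and 12.5% lower. Of 10 hepatocyte markers, 5 were lower and none higher (median -0.69), and their summed level was 48883 to 71012 CPM in KO and 75086 to 128676 CPM in WT. Under library totals 1 of the 10 was lower, without WT replicate 3 there were 8, without KO replicates 1 or 2 or WT replicate 4 there were 2, and without KO replicate 3 or WT replicate 2 there were 3. Of 8 cholangiocyte markers, 7 were higher (median 3.70), with sums of 427 to 1027 CPM in KO and 42.0 to 94.8 CPM in WT. Epcam, 1 of the 7, read 10.4 to 29.7 CPM in KO and 0.142 to 1.23 CPM in WT. It passed the filter on low counts only through KO, so its place among the 7 is a description. All 8 cell division genes were higher, with sums of 150.1 to 207 CPM in KO and 7.67 to 8.97 CPM in WT. Of 8 stellate cell genes, 3 were higher (sums 191 to 319 CPM in KO and 101 to 152 CPM in WT). Of 8 macrophage genes 1 was (197 to 670.4 CPM in KO and 125 to 379.5 CPM in WT), or 3 without WT replicate 3 and 2 without KO replicate 1. The macrophage count was 6 with the library-number series and 5 with the clock index as covariate, beside 17.9% and 16.8% of all genes. It was 4 with library totals (30.3% of all genes), trimmed totals or no filter. Hepatocyte marker factors gave 7 higher stellate cell genes and 5 higher macrophage genes, beside 42.7% of all genes.

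Lymphocyte sums were 8.82 to 13.1 CPM in KO and 3.40 to 6.27 CPM in WT, with 3 of 7 tested genes higher, or 5 of 8 without WT replicates 1 or 3. Neutrophil sums were 7.30 to 17.3 CPM in KO and 2.53 to 6.23 CPM in WT, with 2 of 3 tested genes higher, out of 6 listed. A stricter filter, at least 1 CPM in 4 libraries, left 2 lymphocyte genes tested, with none higher. It left 3 neutrophil genes, with 2 higher, beside 2498 of 14612 genes overall. Both sets lie near the floor, so their counts are a description. Of 6 endothelial genes, 1 was lower (53.4 to 112 CPM in KO and 84.2 to 168 CPM in WT), none under library totals, and 1 was higher with hepatocyte marker factors. The lower count was 3 without WT replicate 3, 2 without WT replicate 1, and 0 without KO replicates 1, 3 or 4 or WT replicates 2 or 4. The part of these cells in the levels of Scd2, Elovl7, Elovl1 and Acsl4 was not tested. Adipocytes also express the synthesis genes. Of 8 adipocyte genes 3 were tested and 1 was lower (0 to 2 with each library left out, the most without WT replicate 3), with sums of 19.5 to 44.3 CPM in KO and 23.4 to 56.2 CPM in WT. None was higher, but 1 of 4 tested was without KO replicate 1, WT replicate 3 or WT replicate 4. With DESeq2, no filter or hepatocyte marker factors 1 was higher as well. The defining markers were near 0, with Adipoq at 0.0459 to 0.711 CPM in KO and 0 to 0.283 CPM in WT, and Lep and Plin1 at no more than 0.127 and 0.102 CPM in KO and at 0 in all WT libraries.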

How the data were processed

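The authors deposited 1 table of raw counts per gene for 8 liver libraries, as integers whose totals differ between libraries. Per the submitters' processing notes, FastQC, cutadapt and STAR were used with build mm10; no source used here gives their versions, the counting program, its strand setting or its annotation. Without a strand setting, reads of genes on opposite strands cannot be separated; 14 of the 35 genes share exon bases with another gene, over 0.205% to 12.8% of their exons.

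Genes were filtered with filterByExpr, scaled with TMM and tested by quasi-likelihood in edgeR 4.0.16 (limma 3.58.1, R 4.3.3). Genotype was the sole model term, Benjamini-Hochberg adjustment covered all 15811 genes, and calls needed an adjusted p below 0.05. The SE of a log2 fold change is the fold change divided by the square root of the F value. Positions and exon lengths came from GENCODE M21, which held 99.7% of the table's identifiers. Alternatives covered DESeq2 1.42.0, limma-voom with quality weights, other scalings and filters, the library-number series or a clock index as covariate, and leaving out libraries. The procedure was tested on simulated counts. Replicates were numbered by accession, so the numbers do not pair libraries. All 35 genes are described whatever their result, with the 4 lowest p-values in each of 4 related lists, of which 1 gene is not reported here; genes, lists and tests were chosen with earlier results of these data known.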

Additional observations from a re-analysis of the deposited data

Results flagged for a closer look

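Within a genotype, 8 of 120 sets of 4 values had 1 library far from the others, by a gap above Dixon's 95% critical value. Chance gives about 1 in 20. All 8 concern replicate 3. In KO replicate 3, Elovl3 read 35.1 CPM, against 95.7 to 103 CPM in the other KO libraries, and Scd1 read 2006 CPM, against 4390.3 to 4866 CPM. In WT replicate 3, Acacb read 34.5 CPM, against 153 to 168 CPM in the other WT libraries, and Fads1 read 226 CPM, against 554 to 597 CPM. Elovl7 had 0 CPM there, against 0.172 to 0.184 CPM, a difference of 0 counts against 2, 3 and 4, too few to set that library apart. Acsl4 was high in that library, at 106 CPM against 63.6 to 67.1 CPM, as was Mlycd, at 118 CPM against 80.8 to 84.2 CPM. The log2 ratio of Acsl1 to Acsl4 was 2.12 in WT replicate 3 and 3.60 to 3.798 in the other WT libraries.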

How the results depend on the processing

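Under 19 alternatives with the same threshold, 9 of 22 lower calls and 2 of 3 higher calls among the synthesis genes held throughout, that of Elovl7 through a filter it passed by its KO counts alone. The sign of 20 of the 22 lower fold changes held in all; Slc25a1 (0.12) and Agpat3 (0.25) turned with hepatocyte marker factors. Lower synthesis genes numbered 14 with library totals, 9 with hepatocyte marker factors and 13 at an adjusted p under 0.01, and higher ones 5 with library totals, trimmed totals or hepatocyte marker factors. Their median log2 fold change was -0.77 with library totals and -0.21 with hepatocyte marker factors, which left Atp7b at -0.66 (adjusted p = 0.0872). Leaving out 1 library gave 17 to 28 lower and 2 to 4 higher synthesis genes, the most without WT replicate 3.

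Over all genes, 2775 were higher and 1971 lower. Higher and lower counts were 4280 and 3946 with quality weights, 4794 and 649 with library totals, 4468 and 746 with trimmed totals, and 6751 and 196 with hepatocyte marker factors. No filter gave 4244 higher, an adjusted p under 0.01 gave 912 lower, and leaving out both libraries of replicate 3, an alternative added after the data were seen, gave 3360 lower. The library numbers cut at their largest gaps as a covariate, added likewise, gave 924 lower. Leaving out 1 library gave 2325 to 4267 higher and 1315 to 3837 lower. The cause of these shifts was not tested. No paired analysis was possible because the labels give no number that ties a KO library to a WT library, and the library-number groups above are covariates, not pairs. Low counts limit Elovl7, Mogat1, Mogat2 and Acss1, and the counts of lymphocyte and neutrophil markers.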
